A study of Mus musculus with 12 samples.

Results

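The BCL2 family genes described here encode proteins that decide, at the mitochondrial outer membrane, whether a stressed cell lives or undergoes apoptosis. They were 10 genes chosen by name: 4 pro-survival genes (Bcl2, Bcl2l1, Bcl2l2 and Mcl1), 2 pore-forming effectors (Bak1 and Bok) and 4 BH3-only genes (Bid, Bad, Bcl2l11 and Bmf). All 10 were among the 19507 genes tested. They were chosen by name, with earlier results of these data known. Their RNA was measured on 12 one-colour Agilent arrays (Cy3 dye) in mouse embryonic fibroblasts, primary mesenchymal cells grown from E12.5 embryos. The groups were wild-type (WT) cells and cells from Itpr2 knock-out (KO) mice, each after 3 passages (early) or 5 passages (late), with 3 arrays per group. Itpr2 encodes an inositol trisphosphate receptor, which releases calcium from the endoplasmic reticulum, and the design text states that the cells came from 3 independent WT or KO mice. The sources used here do not say how the Itpr2 allele was made or which strain the mice were. Whether the early and late cells of one replicate number came from the same embryo was not stated either, so p-values measure the spread between these arrays. For replicate 2 of the KO, sex markers given below differed between early and late cells, so these did not come from the same embryo. For replicate 1 of the KO, a marker of female cells was above background on the late array only, beside a Y-linked gene. The late array thus held RNA of female cells that the early array lacked. Replicate 1 of every group lay on slide 1, replicate 2 on slide 2 and replicate 3 on slide 3.

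Pro-survival BCL2 proteins hold the effectors BAK and BAX in check, while the control of BOK is less well understood. BH3-only proteins are induced or activated by stress and free BAK and BAX, which then open pores that release cytochrome c and lead to caspase activation. BCL2 and BCL-XL, the product of Bcl2l1, also sit on the endoplasmic reticulum, where they bind inositol trisphosphate receptors and alter calcium release. In embryonic fibroblasts, most forms of mitochondrial apoptosis need BAK or BAX.

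The 4 members that passed the test in at least 1 comparison were Bcl2, Bcl2l1, Bak1 and Bad. The 250 bases before the most upstream annotated start of each are printed for these 4, because the RNA of several of them differed in the same comparisons. They were taken from RefSeq on build GRCm38.p6, which is newer than the build the array was annotated on (mm9). Bcl2 lies at chr1:106714291-106714540 on the minus strand, Bcl2l1 at chr2:152831729-152831978 on the minus strand, Bak1 at chr17:27028628-27028877 on the minus strand and Bad at chr19:6941611-6941860 on the plus strand. All 4 windows are 5′ of the first transcribed base, and each is written 5′ to 3′ on the strand of its gene. Capitals mark matches, on either strand, to the GC box GGGCGG (bound by SP1 factors) and to GGAAAA, which holds the core bound by the calcium-regulated NFAT factors. The 2 motifs share no letters in these windows.
Bcl2: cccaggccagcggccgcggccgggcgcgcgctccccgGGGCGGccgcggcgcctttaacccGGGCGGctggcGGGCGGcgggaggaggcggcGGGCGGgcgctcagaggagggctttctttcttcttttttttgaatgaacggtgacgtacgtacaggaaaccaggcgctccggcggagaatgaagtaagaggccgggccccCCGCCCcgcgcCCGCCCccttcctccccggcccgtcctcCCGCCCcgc
Bcl2l1: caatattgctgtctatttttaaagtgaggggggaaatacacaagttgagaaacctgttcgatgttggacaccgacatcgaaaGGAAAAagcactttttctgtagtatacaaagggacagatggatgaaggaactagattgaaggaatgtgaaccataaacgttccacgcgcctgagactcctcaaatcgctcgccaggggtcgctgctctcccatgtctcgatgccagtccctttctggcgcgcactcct
Bak1: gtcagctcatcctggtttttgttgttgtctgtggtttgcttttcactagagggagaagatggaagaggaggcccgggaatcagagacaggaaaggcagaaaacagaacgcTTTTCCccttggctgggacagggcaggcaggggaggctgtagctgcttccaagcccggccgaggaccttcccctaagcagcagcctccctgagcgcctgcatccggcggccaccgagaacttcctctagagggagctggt
Bad: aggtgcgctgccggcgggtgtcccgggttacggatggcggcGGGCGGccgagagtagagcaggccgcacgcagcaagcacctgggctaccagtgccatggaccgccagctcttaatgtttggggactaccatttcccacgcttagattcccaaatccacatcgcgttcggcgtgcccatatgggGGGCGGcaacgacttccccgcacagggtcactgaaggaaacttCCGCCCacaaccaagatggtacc

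The Bcl2 window held 7 GC boxes and the Bad window 3, while the Bcl2l1 and Bak1 windows held none and each held 1 match to GGAAAA. Over all 16 annotated starts of the 10 members, 8 windows held GGGCGG, against 32.7% of 32851 mouse promoter windows of the same length. A match to GGAAAA was found in 3 of the 16, against 20.4% of all windows, and the CCAAT box in 5 of 16, against 33.8%. TATAAA (12.4% of all windows), the E-box CACGTG (6.02%) and the cyclic AMP element TGACGTCA (1.55%) were found in 0 of the 16. These are matches of letters only. The median GC content was 60.6% for the members' windows and 52.4% for all. The members are spread over 7 chromosomes. Bid lies on chromosome 6, as does Itpr2, with 292 protein-coding genes between them.

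Levels are given as log2 intensity relative to the 75th percentile of each array, so 0 is the brightness of that percentile. They can be compared between arrays for one probe but not between probes. The members had 15 probes, of which 14 were well above background on all 12 arrays and 0 were saturated. Bcl2l1, Bcl2l2, Mcl1, Bad and Bcl2l11 had 2 probes each, and the brighter one stood for the gene. Differences were tested with limma in a model of the 4 group means, with p-values adjusted over the 19507 genes by the Benjamini-Hochberg method. A gene was called changed at an adjusted p under 0.05. Each difference is printed with its standard error (SE) and rests on 3 arrays per group.

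Over the whole arrays, the 75th percentile intensity ranged from 568.9 to 902.5. The Itpr2 probe was not lower in the KO (0.40 ± 0.15 early and 0.15 ± 0.15 late, log2 KO against WT, adjusted p = 0.741 and 0.584 by limma). The sources used here do not place that probe against the targeted part of Itpr2, so it does not check the genotype. All 10 fibroblast markers were well above background on every array, with a summed log2 level of 9.30 to 9.82. Of 10 macrophage markers, all 10 were also above background on every array, and 9 had a lower mean in KO than WT at late passage, 2 of them past the test. Their summed log2 level was 5.43 to 6.36 in WT early, 5.41 to 5.72 in KO early, 5.96 to 6.70 in WT late and 5.08 to 5.80 in KO late arrays. The summed level of the 5 neural and glial markers tested was also highest in WT late (3.88 to 4.06, against 3.17 to 3.55 on the other 9 arrays). This sum weighs the brightest markers most. Of the 5, 2 had a higher and 3 a lower mean in WT late than in WT early. In KO late against WT late 2 were higher and 3 lower, with 1 call each way. All 5 cartilage markers tested had a higher mean in KO than WT at late passage, 3 of them past the test. Xist, which marks female cells, was above background on 4 arrays: WT early 1, WT late 1, KO late 1 and KO late 2. On KO late 1 the Y-linked gene Ddx3y was also high (-0.14). KO early 1 had Ddx3y at 0.76 and no Xist above background. KO early 2 had Ddx3y at 0.76 and no Xist above background, while KO late 2 had Xist and Ddx3y at -7.56. No KO early array had Xist above background, so sex and passage were partly confounded in the KO. The KO late arrays varied least, with a median SD over all genes of 0.084 against 0.14 to 0.21 in the other groups.

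**Figure D1:**
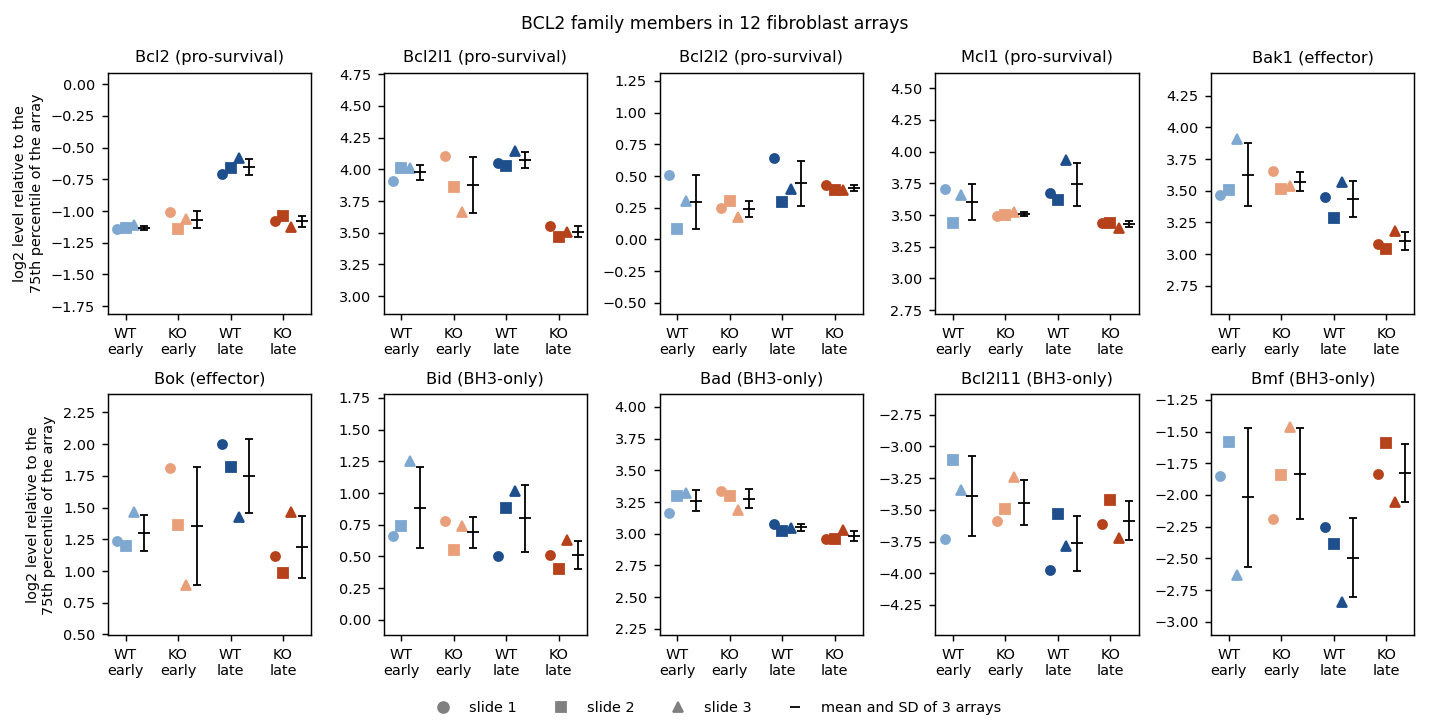
Log2 level of each member (y axis, relative to the 75th percentile of the array, each panel spanning the same range) on every array of the 4 groups (x axis), with marker shapes for the slide and black bars for the mean and SD of 3 arrays. The 3 WT late arrays stand above all other arrays for Bcl2, and the 3 KO late arrays stand below all others for Bcl2l1 and Bak1.

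At early passage the WT and KO fibroblasts had no member called different. Bid, which caspase-8 cleaves to link death receptors to mitochondria, had the lowest difference (-0.19 ± 0.17 KO against WT, adjusted p = 0.782 by limma). The highest was that of Bmf, a BH3-only gene whose protein is held at the actin cytoskeleton (0.19 ± 0.28, adjusted p = 0.873 by limma). The count was thus 0 of 10, where 0.0359% of all genes were called (7 genes by limma, with 1168 at an unadjusted p under 0.05). In 0 of 10 members the groups did not overlap, against 9.54% of all genes. The 95% confidence intervals of the 10 differences ran from a lowest bound of -0.58 to a highest bound of 0.82. The interval was tightest for Bcl2 (-0.10 to 0.22) and Bad (-0.15 to 0.19). The members' median difference was -0.05, and that of all genes was 0.02.

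At late passage Bcl2 and Bcl2l1, 2 of the 4 pro-survival genes, were lower in KO than in WT fibroblasts. Bcl2 was 1.35-fold lower and Bcl2l1 1.48-fold lower. Neither effector and none of the 4 BH3-only genes was called. The count was 2 of 10 lower and 0 higher, where 7.83% of all genes were called (4.37% lower and 3.46% higher). The groups did not overlap for 5 of 10 members, against 39.3% of all genes. The members' median was -0.30 on the log2 scale and that of all genes -0.01.

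Bcl2 encodes the founding pro-survival protein of the family. Its levels were -0.71, -0.66 and -0.58 in the WT late arrays and -1.08, -1.04 and -1.12 in the KO late arrays. Every KO late array was below every WT late array. The difference was -0.43 ± 0.072 (adjusted p = 0.0103 by limma), and on slides 1, 2 and 3 it was -0.37, -0.38 and -0.54. Without KO late 1 the difference was -0.43 with an adjusted p of 0.0586 by limma. KO late 1 and 2 were the late KO arrays with Xist, and without both the difference was -0.47 with an adjusted p of 0.228, from a single KO late array assumed to vary like the other groups. With the Xist level as a covariate it was -0.43 (adjusted p = 0.0226 by limma). The neural marker sum was higher on all 3 WT late arrays than on the other 9, though single neural markers differed in direction. The macrophage marker sum was higher on all 3 WT late than on all 3 KO late arrays, although 1 WT early array lay within the WT late range. All 5 cartilage markers tested had a higher mean in KO late than in WT late, 3 of them past the test. Of 3 skeletal muscle markers 1 was called lower in KO late. The part of these markers in the result was not tested. In such bulk cultures, fewer cells of a type and less RNA per cell cannot be told apart.

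Bcl2l1 encodes BCL-XL, a pro-survival protein of the outer mitochondrial membrane, and a shorter pro-death splice form. The brighter probe (annotated to NM_001289716) read 4.05, 4.03 and 4.15 in WT late and 3.55, 3.47 and 3.50 in KO late arrays. All 3 KO late arrays were the lowest of the 12. The difference was -0.56 ± 0.11 (adjusted p = 0.0154 by limma), with -0.49, -0.56 and -0.64 on slides 1 to 3. The dimmer probe (annotated to NM_009743) was also lower, by a difference of -0.59 ± 0.14 (adjusted p = 0.0363 by limma with one test per probe, where 7.68% of 24359 probes were called). On that probe the 3 KO early arrays were likewise all below the WT early arrays (-0.32 ± 0.14, adjusted p = 0.707 by limma). The call for the brighter probe depended on each of 4 arrays. The adjusted p by limma was 0.0537 without WT late 3, 0.0640 without KO late 1, 0.0621 without KO late 2 and 0.0535 without KO late 3, while the difference stayed between -0.59 and -0.53. Without both late KO arrays with Xist it was -0.57 (adjusted p = 0.274 by limma).

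Mcl1 and Bcl2l2, the other two pro-survival genes, were not called. Mcl1 encodes a short-lived survival protein. Its brighter probe read 3.67, 3.62 and 3.94 in WT late and 3.44, 3.44 and 3.40 in KO late arrays, without overlap, but the difference of -0.32 ± 0.10 missed the threshold (adjusted p = 0.0856 by limma). It passed after another background correction, normexp (-0.34, adjusted p = 0.0483 by limma). The dimmer Mcl1 probe overlapped between these groups, with -0.096 ± 0.079 (adjusted p = 0.504 by limma with one test per probe). Bcl2l2 encodes BCL-W. Its groups overlapped at late passage (-0.04 ± 0.12, adjusted p = 0.884 by limma).

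The effectors were not called at late passage. Bak1, the gene of BAK, read 3.45, 3.29 and 3.57 in WT late and 3.08, 3.04 and 3.18 in KO late arrays. The groups did not overlap, and the difference was -0.33 ± 0.13 (adjusted p = 0.130 by limma). Bok is a BAX-like effector. It had a difference of -0.56 ± 0.23 (adjusted p = 0.164 by limma), the same size as that of Bcl2l1 but with a larger SE. On slides 1 and 2 Bok was lower in KO late (-0.88 and -0.84), and on slide 3 the groups were level (0.03).

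The BH3-only genes differed in sign among themselves, and none passed. Bmf read -2.25, -2.39 and -2.85 in WT late and -1.83, -1.59 and -2.05 in KO late arrays. Every KO late array was above every WT late array, and the difference was 0.67 ± 0.28 (adjusted p = 0.173 by limma). Bid overlapped between the groups (-0.29 ± 0.17, adjusted p = 0.348 by limma), and so did Bcl2l11, the gene of BIM (0.18 ± 0.17, adjusted p = 0.570 by limma). Bad, whose protein neutralises BCL2 and BCL-XL when it is not phosphorylated, had the smallest of these differences (-0.07 ± 0.076, adjusted p = 0.629 by limma).

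**Figure D2:**
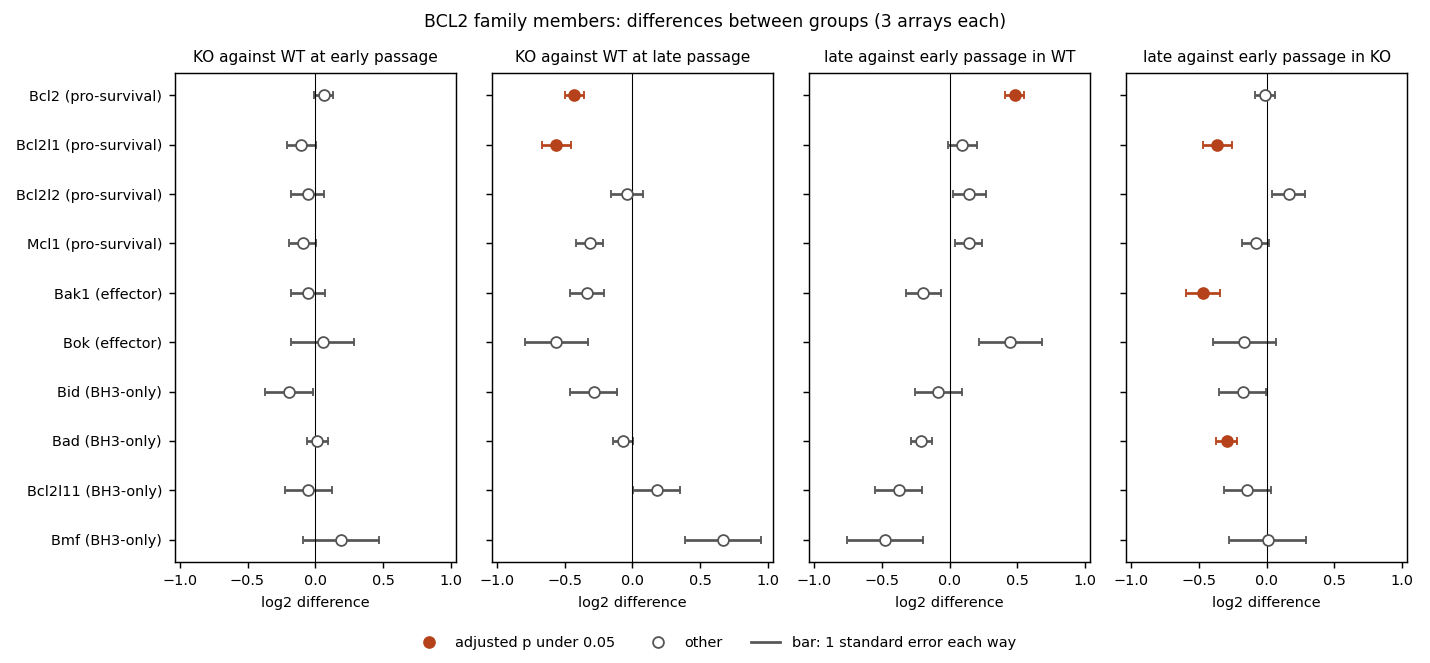
Log2 difference of each member (rows, with its role) in the 4 comparisons (panels, all on the same x axis), with bars for 1 standard error each way and filled points for an adjusted p under 0.05. Calls lie in the late KO comparison (Bcl2 -0.43, Bcl2l1 -0.56), in the WT passage comparison (Bcl2 0.48) and in the KO passage comparison (Bcl2l1 -0.37, Bak1 -0.47, Bad -0.29).

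Between 3 and 5 passages of WT fibroblasts, Bcl2 rose 1.39-fold and no other member was called. Bcl2 read -1.14, -1.14 and -1.11 in WT early arrays, which lay within an SD of 0.016, and -0.71, -0.66 and -0.58 in WT late arrays. The rise was 0.48 ± 0.072 (adjusted p = 0.00506 by limma) and was 0.43, 0.48 and 0.53 on slides 1 to 3. In a model of the 2 WT groups alone, the same rise had an adjusted p of 0.0661 by limma. The macrophage and neural marker sums were higher in WT late than in WT early arrays on average. Of the neural markers, 2 had a higher and 3 a lower mean in WT late. The part of either sum was not tested. This comparison and the late KO comparison share the WT late arrays.

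The WT passage count was 1 of 10 higher and 0 lower, where 10.6% of all genes were called (6.22% higher and 4.37% lower). Groups did not overlap for 3 of 10 members, against 27.7% of all genes. These were Bcl2, Bcl2l1 (0.10 ± 0.11, adjusted p = 0.595 by limma) and Bad (-0.21 ± 0.076, adjusted p = 0.107 by limma). On the brighter probes all 4 pro-survival genes had positive differences and all 4 BH3-only genes had negative ones, from -0.08 for Bid to -0.47 for Bmf, but Bcl2 was the only one of the 8 past the threshold. BH3-only genes outside the members did not share one direction. Bbc3 fell, while Pmaip1 was higher in WT late on slides 1 to 3 (0.51, 0.25 and 0.23) and was not called. Bik was also higher on slides 1 to 3 (0.12, 1.53 and 0.90), but was above background on only 1 of 3 WT early arrays. Bcl2l11 had a difference of -0.37 ± 0.17 (adjusted p = 0.190 by limma) on its brighter probe and of 0.37 ± 0.23 on its dimmer one, so its sign depended on the probe. Bok had a difference of 0.45 ± 0.23 (adjusted p = 0.228 by limma). The median was 0.0054 for the members and -0.0043 for all genes.

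Between 3 and 5 passages of KO fibroblasts, Bak1, Bcl2l1 and Bad fell, by 1.38-fold, 1.29-fold and 1.23-fold. For Bcl2l1 and Bad this was the brighter probe. The dimmer probes differed by 0.07 and 0.03 and were not called, and averaging both probes ended both calls. The 3 genes are an effector, a pro-survival gene and a BH3-only gene. The count was 3 of 10 lower and 0 higher, where 18.9% of all genes were called (9.95% higher and 9% lower). Groups did not overlap for 5 of 10 members, against 51.9% of all genes. The medians were -0.15 for the members and -0.05 for all genes. Markers of cell types also moved in this comparison. Of 5 cartilage markers 4 had a higher mean in KO late, 2 of them past the test. Called lower were 2 of 10 fibroblast and 1 of 3 skeletal muscle markers, while 0 of 10 macrophage markers were called. The summed cartilage level, which weighs the brightest markers most, overlapped between KO early (4.78 to 5.21) and KO late arrays (4.66 to 5.35). The mean level of the 5 cartilage markers did not overlap (-2.05 to -0.43 in KO early and 0.82 to 1.16 in KO late arrays). The part of these markers in the falls was not tested.

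Bak1 read 3.66, 3.52 and 3.54 in KO early and 3.08, 3.04 and 3.18 in KO late arrays. All late arrays were below all early ones. The difference was -0.47 ± 0.13 (adjusted p = 0.0273 by limma), and -0.58, -0.47 and -0.36 on slides 1 to 3. Bad read 3.34, 3.30 and 3.19 in KO early and 2.96, 2.96 and 3.03 in KO late arrays, again without overlap. Its difference was -0.29 ± 0.076 (adjusted p = 0.0239 by limma), with -0.38, -0.34 and -0.17 on slides 1 to 3. The brighter Bcl2l1 probe read 4.10, 3.86 and 3.66 in KO early arrays, the widest spread of its 4 groups (SD 0.22), and 3.55, 3.47 and 3.50 in KO late arrays. This gave -0.37 ± 0.11 (adjusted p = 0.0388 by limma), with -0.55, -0.39 and -0.16 on slides 1 to 3.

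These 3 calls rested on single arrays. None of the 3 passed without KO early 1, KO early 2 or any 1 of the KO late arrays, nor after quantile normalization, without the filter on dim probes, with the Xist level as a covariate or without both KO late arrays with Xist, though every difference stayed negative. Adjusted p-values by limma with an array left out ran from 0.0154 to 0.0941 for Bad, from 0.00691 to 0.0953 for Bak1 and from 0.0113 to 0.119 for Bcl2l1. The Bcl2l1 call was also lost without WT late 1 or WT late 2 (adjusted p = 0.0507 and 0.0515 by limma). Without both late KO arrays with Xist the differences were -0.25 for Bad, -0.39 for Bak1 and -0.37 for Bcl2l1.

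Of the other members, Bcl2l2 (0.16 ± 0.12, adjusted p = 0.374 by limma) and Mcl1 (-0.08 ± 0.10, adjusted p = 0.612 by limma) did not overlap between KO early and KO late and missed the threshold. Bok (-0.16), Bid (-0.18), Bcl2l11 (-0.14) and Bmf (0.0067) overlapped, with adjusted p-values of 0.509 to 0.990 by limma. Bcl2 had no such difference with passage in KO fibroblasts. It read -1.005, -1.14 and -1.06 in KO early and -1.08, -1.04 and -1.12 in KO late arrays, which overlapped (-0.01 ± 0.072, adjusted p = 0.941 by limma). Over the 4 groups the mean Bcl2 level was -1.13 in WT early, -1.08 in KO late, -1.07 in KO early and -0.65 in WT late. The first 3 lay within 0.06 of each other and overlapped. For Bcl2l1 the order was KO late (3.51), KO early (3.88), WT early (3.98) and WT late (4.07), and of these neighbours KO early and WT early overlapped, while WT early and WT late did not overlap and missed the threshold. For Bak1 the order was KO late (3.102), WT late (3.44), KO early (3.57) and WT early (3.63), with overlap among the last 3. For Bad it was KO late (2.98), WT late (3.05), WT early (3.26) and KO early (3.28), so that both late groups lay below both early groups.

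**Figure D3:**
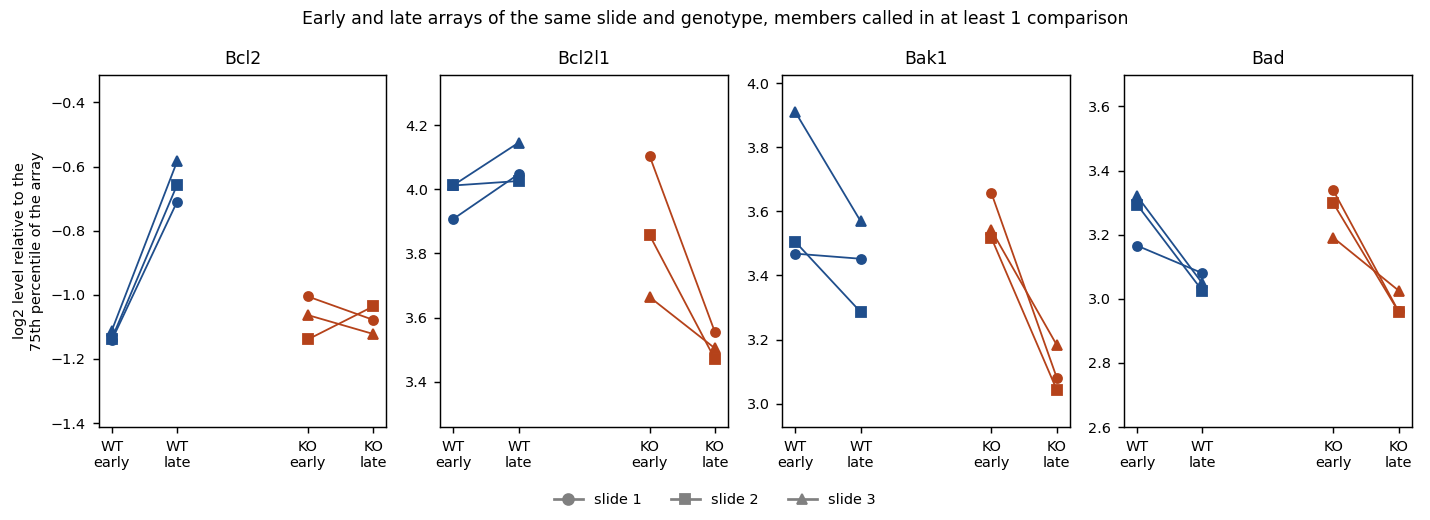
Log2 levels (y axis) of the 4 members called in at least 1 comparison, with lines joining the early and late arrays of one genotype on the same slide (x axis), WT in blue and KO in red. Bcl2 was higher at late passage on all 3 slides in WT, and Bcl2l1, Bak1 and Bad were lower at late passage on all 3 slides in KO. The lines join arrays by slide. On slides 1 and 2 the KO early and KO late arrays differed in sex markers.

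The passage responses of KO and WT were also compared with each other. No member passed (0 of 10, where 0.0871% of all genes, 17 by limma, were called, and 2713 genes had an unadjusted p under 0.05). The response of Bcl2 was lower in KO by -0.49 ± 0.10 on the log2 scale, with a 95% interval of -0.72 to -0.26 (adjusted p = 0.114 by limma). That of Bcl2l1 differed by -0.46 ± 0.15 (adjusted p = 0.253 by limma), and that of Bok by -0.61 ± 0.33 (adjusted p = 0.427 by limma). The Bcl2 call in WT and its absence in KO are therefore not shown to differ after adjustment. With arrays weighted by their spread, Bcl2 and Bcl2l1 passed this test (adjusted p = 0.0144 and 0.0410 by limma), and array weights called 1399 genes in place of 17.

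The pairs of probes of a gene did not always move together. Mcl1 was the clearest case. Its dimmer probe rose with passage in both genotypes, from 1.20 ± 0.043 to 1.66 ± 0.12 in WT and from 1.29 ± 0.022 to 1.57 ± 0.031 in KO (mean ± SD, n = 3). The rises were 0.46 ± 0.079 in WT (adjusted p = 0.00828 by limma, where 9.76% of probes were called) and 0.27 ± 0.079 in KO (adjusted p = 0.0394 by limma, where 17.7% were called). The brighter Mcl1 probe had differences of 0.14 ± 0.10 and -0.08 ± 0.10 in the same comparisons (adjusted p = 0.392 and 0.612 by limma). Both probes are annotated to the same RefSeq transcript, NM_008562, and their sequences are not in the files used here.

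The ratio of the dimmer to the brighter probe within each array was then tested over the 4031 genes with 2 or more probes, after the difference between the Mcl1 probes had been seen. For Mcl1 this log2 ratio was -2.56, -2.21 and -2.43 in WT early, -2.22, -2.20 and -2.21 in KO early, -2.02, -2.07 and -2.15 in WT late and -1.91, -1.87 and -1.81 in KO late arrays. Each late array was above each early one. Averaged over genotypes, the ratio rose with passage by 0.34 ± 0.062 (adjusted p = 0.0103 by limma), and 6.57% of such genes were called. KO against WT, averaged over passages, the Mcl1 ratio differed by 0.20 ± 0.062 (adjusted p = 0.349 by limma). The other members with a pair of probes missed the threshold for passage: Bcl2l11 (0.69 ± 0.18, adjusted p = 0.0512 by limma), Bad (0.24 ± 0.070, adjusted p = 0.0726), Bcl2l1 (0.34 ± 0.13, adjusted p = 0.171) and Bcl2l2 (0.09 ± 0.089, adjusted p = 0.651).

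**Figure D4:**
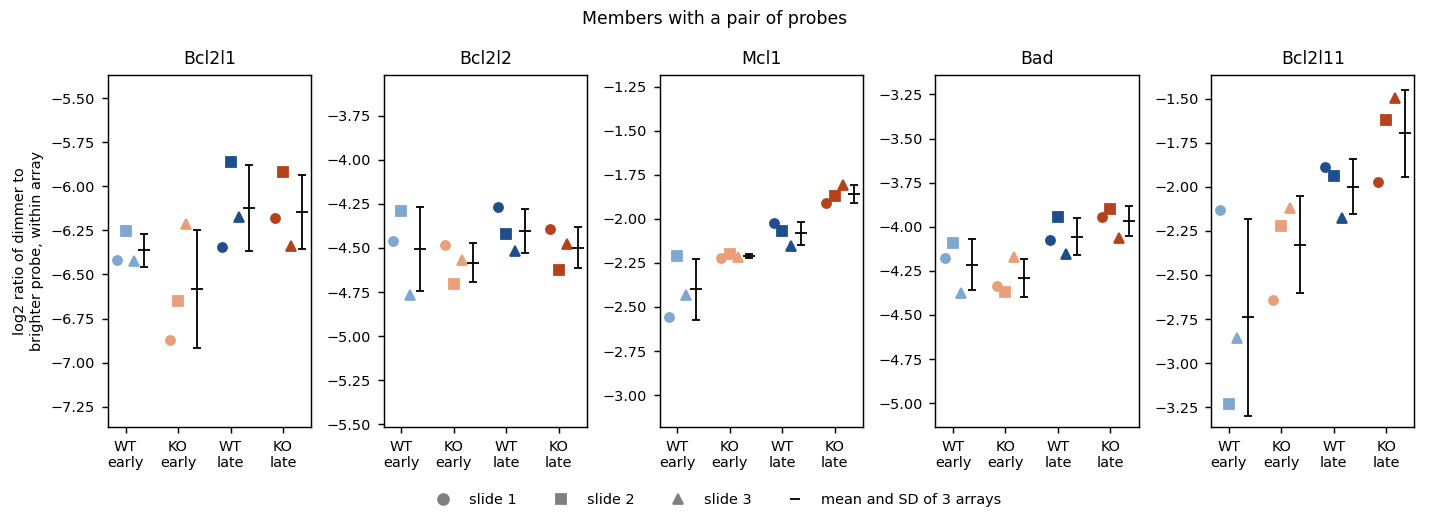
Log2 ratio of the dimmer to the brighter probe within each array (y axis, each panel spanning the same range) for the 5 members with a pair of probes, by group (x axis), with black bars for the mean and SD of 3 arrays. For Mcl1 all 6 late arrays lie above all 6 early arrays.

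The falls of Bad and Bcl2l1 with passage in KO cells were seen on one probe of each pair. The dimmer Bad probe gave 0.03 ± 0.091 (adjusted p = 0.849 by limma with one test per probe) and the dimmer Bcl2l1 probe 0.07 ± 0.14 (adjusted p = 0.779 by limma). Averaging both probes gave -0.13 for Bad (adjusted p = 0.228 by limma) and -0.15 for Bcl2l1 (adjusted p = 0.285 by limma). Averaging gave Mcl1 a rise of 0.30 with passage in WT (adjusted p = 0.0479 by limma). The dimmer Bcl2l11 probe was well above background on 0 of 3 WT early, 2 of 3 KO early, 3 of 3 WT late and 3 of 3 KO late arrays. Against WT early its differences were 0.36 ± 0.23 in KO early and 0.37 ± 0.23 in WT late, and neither was called (adjusted p = 0.711 and 0.335 by limma with one test per probe).

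Of the 15 other BCL2 family genes listed, 11 could be tested. At late passage 3 of the 11 were lower in KO than WT and 0 were higher, where 4.37% of all genes were lower and 3.46% higher. Pmaip1 encodes NOXA, a BH3-only protein that neutralises MCL1. It read 2.88, 2.32 and 2.55 in WT late and 1.31, 1.23 and 1.36 in KO late arrays, a difference of -1.28 ± 0.20 or 2.43-fold (adjusted p = 0.00855 by limma). No other array read as low as the 3 KO late ones. Bcl2a1d belongs to the A1 pro-survival genes, which are known from blood cells. Its level was 0.20, 0.88 and 1.31 in WT late and -0.70, -0.41 and -1.07 in KO late arrays (-1.52 ± 0.27, adjusted p = 0.0122 by limma). It lost its call without KO late 1, and the macrophage markers moved the same way. The median of the macrophage markers differed by -1.15 between KO and WT late, and their part in the Bcl2a1d result was not tested. Bcl2a1d has near-identical copies, of which Bcl2a1a and Bcl2a1b had 0 probes here, so its signal may include theirs. Bik, a BH3-only gene, was well above background on 3 of 3 WT late and 0 of 3 KO late arrays. It was at least 1.99-fold lower in KO late (adjusted p = 0.00688 by limma for the measured difference, not for this bound). That call was lost after normexp correction.

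With passage, Bbc3 fell in both genotypes. It encodes PUMA, a BH3-only protein and p53 target. Bbc3 went from 1.98, 2.40 and 2.16 to 1.32, 1.41 and 1.60 in WT (-0.74 ± 0.14, adjusted p = 0.0115 by limma) and from 2.12, 2.19 and 2.29 to 1.42, 1.56 and 1.15 in KO (-0.82 ± 0.14, adjusted p = 0.00416 by limma). The late groups lay below the early groups in each genotype, and the responses differed by -0.08 ± 0.20 (adjusted p = 0.877 by limma). In WT the other calls were Bcl2a1d (1.57 ± 0.27, adjusted p = 0.00783 by limma) and Bcl2l15, a little studied family gene. Bcl2l15 was at least 1.96-fold higher in WT late (adjusted p = 0.0362 by limma for the measured difference, not for this bound). The Bcl2l15 probe was above background on 0 of 3 WT early arrays, and its call was kept in 11 of 23 other settings. In a model of the 2 WT groups alone these 3 WT calls were lost.

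In KO cells 3 of the 11 fell with passage (Bbc3, Pmaip1 and Bax) and 2 rose (Bcl2l14 and Bnip3). Of all genes 9% fell and 9.95% rose. Bax, the effector that acts beside BAK, read 4.82, 4.60 and 4.48 in KO early and 4.17, 4.25 and 4.04 in KO late arrays (-0.48 ± 0.14, adjusted p = 0.0389 by limma). Pmaip1 differed by -0.74 ± 0.20 (adjusted p = 0.0309 by limma). Like the members' calls in this comparison, the Bax and Pmaip1 calls were lost without KO early 1, KO early 2 or any 1 of the KO late arrays. Both were lost without the filter on dim probes. The Bax call was also lost after quantile normalization, after normexp correction and with the Xist level as a covariate, and was kept in 15 of 25 other settings. Bnip3, a mitophagy receptor induced by low oxygen, rose by 0.58 ± 0.15 (adjusted p = 0.0242 by limma). Bcl2l14 was above background on 0 of 3 KO early and 3 of 3 KO late arrays and was at least 1.20-fold higher. The adjusted p of 0.00320 by limma is for the measured difference, not for this bound. Its direction turned after normexp correction. Among the other BCL2 family genes, Hrk and Bcl2l10 each had 1 probe that did not pass the background filter.

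**Figure D5:**
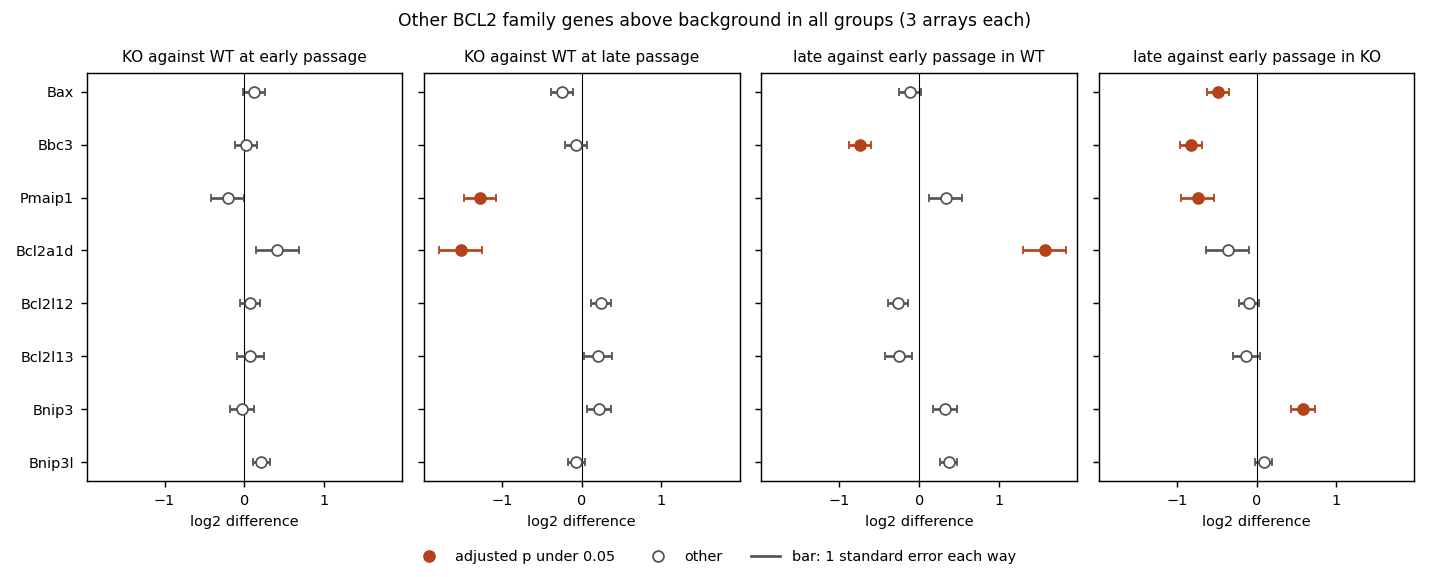
Log2 difference (x axis, shared by the 4 panels) of the 8 other BCL2 family genes that were well above background on all arrays, with bars for 1 standard error each way and filled points for an adjusted p under 0.05. Pmaip1 and Bcl2a1d are lower in KO at late passage (-1.28 and -1.52), and Bbc3 is lower at late passage in both genotypes (-0.74 and -0.82).

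Of the 48 other apoptosis genes tested, 0 were called between KO and WT at early passage, 2 at late passage, 2 with passage in WT and 5 with passage in KO. The shares over all genes were 0.0359%, 7.83%, 10.6% and 18.9%. Of 14 caspase and apoptosome genes, 0 were called at late passage between genotypes and 0 with passage in WT. With passage in KO, Dffb, the nuclease that cuts DNA in apoptosis, rose by 0.89 ± 0.13 (adjusted p = 0.00247 by limma), and Cycs, the gene of cytochrome c, had a difference of -0.49 ± 0.12 (adjusted p = 0.0174 by limma). Of 6 inhibitors of apoptosis, Birc2 was higher in KO at late passage (0.29 ± 0.070, adjusted p = 0.0334 by limma) and rose with passage in KO (0.40 ± 0.070, adjusted p = 0.00479 by limma), while Birc3 rose in WT (0.47 ± 0.10, adjusted p = 0.0205 by limma).

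Of 9 channels and partners of BCL2 proteins at the endoplasmic reticulum and mitochondria, Itpr1 was higher in KO at late passage (0.46 ± 0.12, adjusted p = 0.0424 by limma). Itpr2 rose with passage in WT (0.66 ± 0.15, adjusted p = 0.0246 by limma). Of 8 binding partners that hold BH3-only proteins, 2 fell with passage in KO. Dynll1, the dynein light chain that binds BIM and BMF, had -0.43 ± 0.11 (adjusted p = 0.0193 by limma), and Ywhaq, a 14-3-3 gene, had -0.32 ± 0.096 (adjusted p = 0.0398 by limma). Of the 4 genes of MCL1 protein turnover and the 7 transcription factors known to induce BH3-only genes, Trp53 and Foxo3 included, 0 were called in any comparison. The calls of Birc2 at late passage, Itpr1, Itpr2, Birc3, Dynll1 and Cycs were each lost without some single arrays. The Cycs call was also lost with the mean of its probes, and that of Dffb after normexp correction. The Itpr1 call was kept in 13 of 25 other settings. Leaving out both KO late arrays with Xist left 1 KO late array. In that fit the calls of Pmaip1, Bcl2a1d, Bik, Birc2 and Itpr1 at late passage were lost. Those of Bbc3, Bax, Pmaip1, Bcl2l14, Dffb, Cycs, Birc2 and Dynll1 with passage in KO were lost too. Most calls over all genes in these 2 comparisons were also lost, so this fit says little about single genes.

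The genes with the pattern most like each called member were found by the correlation of log2 levels over the 12 arrays, as a description. For Bcl2 these were Cttnbp2nl (Pearson r = 0.954) and the transcript ENSMUST00000054384 (r = 0.942). For Bcl2l1 they were 1700009N14Rik (r = 0.977) and Dyrk3 (r = 0.967). For Bak1 they were Psmc5 (r = 0.982) and Ubl5 (r = 0.974), and for Bad they were U76762 (r = 0.969) and ENSMUST00000178807 (r = 0.968). Among the members themselves, Bak1 and Bad were the most alike (r = 0.83), and Bcl2l2 and Bcl2l11 the most opposed (r = -0.88). The 12 arrays share 4 groups and 3 slides, and the genes named were the 2 with the highest correlation of 19506 genes.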

How the data were processed

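RNA of 12 fibroblast cultures was measured on one-colour Agilent arrays. Per the file headers, the deposited scanner files hold for each spot a processed intensity, with the background subtracted by Agilent Feature Extraction 11.5.1.1, while the submitters' processing notes name version 10.7.3.1. An alternative used the authors' deposited table of log2 values, which from its values is centred per probe and covers 22887 probes. The sources used here do not say how its probes were filtered. The column medians of that table ran from -0.0424 to 0.0237, and its values correlated with the centred scanner values at r = 0.998.

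Outlier spots, as the scanner software called them, were dropped, repeated spots averaged, and log2 intensities set against the 75th percentile of each array. Probes had to be well above background in all 3 replicates of some group. The brightest kept probe stood for a gene. Of 28290 probes with a RefSeq accession, 27963 matched the RefSeq gene table (GRCm38.p6), which gave current symbols. A model of 4 group means was fitted to all 12 arrays with limma 3.58.1 in R 4.3.3, which pools the spread of the groups, and was tested on simulated data. The number of arrays limits the precision.

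The members and gene lists were chosen with earlier results of these data known, and no list was given a test. Genes named were the 10 members, Bax, Bbc3 and Pmaip1, and of the other listed genes those past the threshold, at most the 5 with the smallest adjusted p per comparison. Bnip3 and Ywhaq fell outside that rule and were named after their values were seen. The 2 genes most like each called member were also named. Probe ratios and promoter motifs were added after the levels had been seen.

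Replicate numbers were checked as pairs. Same-numbered WT early and late arrays deviated from their group means together (r = 0.279, 0.244 and 0.141), so the numbers pair these arrays, which share a slide. In the other comparisons at least 1 pair had r under 0.1.

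The files lack a mean signal column, so normexp correction, an alternative, used median signals with an offset of 50. Other alternatives were quantile normalization, other probe filters and summaries, the slide as a block, array weights, other moderation, fewer groups, Xist as covariate, and leaving out arrays.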

Additional observations from a re-analysis of the deposited data

Results flagged for a closer look

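For 2 probes, the brighter one of Bcl2l1 and that of Bik, every WT array read higher at late passage than every WT array at early passage, while every KO array moved the opposite way. For Bcl2l1 the passage response of KO minus that of WT was -0.46 on the log2 scale (SE 0.15), and the test of this difference missed the threshold (adjusted p = 0.253 by limma). On slides 1 to 3 the brighter Bcl2l1 probe differed by 0.14, 0.013 and 0.13 with passage in WT and by -0.55, -0.39 and -0.16 in KO. The dimmer Bcl2l1 probe had no such opposite movement, with differences of 0.33 in WT and 0.07 in KO. For Bik the same difference was -1.55 and missed the threshold (adjusted p = 0.184 by limma). The Bik probe was well above background on 1 of 3 WT early, 0 of 3 KO early, 3 of 3 WT late and 0 of 3 KO late arrays, so its direction with passage in KO was not measured and the value shows no contrast between the responses. After normexp correction its WT difference turned to -0.13.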

How the results depend on the processing

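Results were recomputed under up to 25 other settings, of which 12 left out 1 array. Bik, Bcl2l14 and Bcl2l15 had at most 23, and the difference of passage responses could not be fitted with only 2 groups. The call of Bcl2 with passage in WT was kept in 24 of 25 (adjusted p 0.00366 to 0.0661 by limma), that of Bcl2 between genotypes at late passage in 23 and that of Bcl2l1 there in 20. With passage in KO, Bak1 was kept in 16, Bad in 14 and Bcl2l1 in 11. Counts of members called with passage in KO were 0 after quantile normalization and 0 without the filter on dim probes. Over all genes these settings called 3359 and 2320, against 3696 in the main fit. Member counts were 1 with the mean of all probes of a gene, 6 with array weights and 0 with Xist as covariate. Over all genes these called 3667, 14730 and 2494. Between genotypes at late passage the member count was 6 with array weights, which called 5198 of all genes in place of 1528. The fit without both KO late arrays with Xist leaves 1 KO late array, so its calls are not counted here. With passage in WT the member counts were 2 with the mean of probes and 0 with the 2 WT groups alone. Over all genes these called 2007 and 560, against 2065 in the main fit. For the difference of passage responses, array weights gave 2 members and 1399 of all genes in place of 17. Leaving out 1 array gave 0 to 3 members between genotypes at late passage (255 to 2353 of all genes). With passage in KO it gave 0 to 3 members (1780 to 4742 of all genes). The cause of these changes was not tested. With the replicate block the Bcl2l1 difference with passage in KO, -0.37, lost its call (adjusted p = 0.0565 by limma), and the other calls of members were kept. Of the other listed genes named, Itpr1 at late passage lost its call with the block. The block moved calls over all genes from 1528 to 1411 at late passage, from 2065 to 2224 in WT and from 3696 to 3747 in KO. Every WT array across passages correlated best with its own number.

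Directions turned after normexp correction for Bcl2l14 (0.028 KO against WT early, -0.20 with passage in WT, -0.0425 in KO), Bik (-0.13 with passage in WT), Dffb (-0.12 with passage in WT) and Birc3 (0.0039 KO against WT late, 0.037 for the difference of responses). Bcl2 turned to 0.060 with passage in KO under array weights, and Bid to 0.0064 there with Xist as covariate. Another 68 sign changes concerned uncalled differences smaller than their own SE. Over all genes, higher against lower calls between genotypes at late passage were 675 to 853, 1003 to 787 after quantile normalization and 858 to 798 after normexp. With passage in WT they were 1213 to 852 and 797 to 1240 after normexp. Array weights called 14730 genes with passage in KO in place of 3696.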
